A study of Rattus norvegicus with 20 samples.

Results

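Endothelial identity genes, meaning 36 genes whose transcripts mark the inner lining of blood vessels, were followed across whole mesenteric arteries of rats with inherited or surgically induced high blood pressure. They were chosen by name, and a gene was read from the probes that carry its symbol on a rat whole-genome Agilent array. Probes of that name were present for 33 of the 36 genes, out of 26214 gene names on the array, and 32 were bright enough to be tested. No probe carried the names Ptprb, Mmrn2 or Ecscr, and these 3 were not analysed here. The probe for Sox17 was well above background on 5 of 20 arrays (2 SHR, 1 SHRSP, 1 2K1C, 0 1K1C and 1 untreated WKY) and was not tested.

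Each of 5 groups held 4 rats, given as separate biological replicates. SHR are spontaneously hypertensive rats (SHR/Izm, untreated) and SHRSP are their stroke-prone relatives (SHRSP/Izm, untreated). The 2K1C and 1K1C groups were WKY/Izm rats, a normotensive strain, with renal artery clipping: 2K1C leaves both kidneys and narrows the artery of 1 of them, and 1K1C removes the other kidney. The untreated WKY rats were WKY/Izm without operation. All 5 groups carry the age label 6 weeks. An operation interval of 3 weeks is given for 2K1C and 1K1C and also for untreated WKY, where what it counts from is not clear. Whether the age is that at operation or at sampling is not given in the sources used here. SHR and SHRSP differ from WKY in their whole inherited background, so strain and hypertension cannot be told apart in those comparisons. No sham-operated group was analysed here.

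Endothelial cells are a single cell layer in contact with blood. They are held together by junction proteins such as VE-cadherin (Cdh5), claudin-5 (Cldn5) and Esam. Their identity is kept by ETS-family factors (Erg, Fli1, Ets1) together with SOX, GATA and TAL factors, and they respond to blood flow and ligands through receptors such as Tie2 (Tek), endoglin and S1pr1. They also hold clotting in check through thrombomodulin (Thbd) and the endothelial protein C receptor (Procr), and in small mesenteric arteries they set vascular tone. Whole arteries hold mostly smooth muscle. A lower endothelial signal in bulk RNA can come from fewer endothelial cells, less RNA per cell or more RNA from other cells. These cannot be told apart here.

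Levels are given as log2 of the scanner's processed signal minus the 75th percentile of that array, so 0 is the array's 75th percentile, and a level is compared between arrays for the same probe only. The 75th percentile itself lay between 574 and 1193 signal units, and 66.5% to 71.7% of spots per array were well above background. Groups sat on 3 slides: SHR and SHRSP shared slide 3, 1K1C and untreated WKY shared slide 2, and 2K1C had slide 1 to itself. Slide and group therefore cannot be told apart for SHR, SHRSP or 2K1C against untreated WKY. The same holds for 1K1C against 2K1C and for the inherited against the renovascular models. SHRSP against SHR and 1K1C against untreated WKY were compared within a slide. There SHR and 1K1C lay in slide row 1, and SHRSP and untreated WKY in slide row 2. Row and group therefore cannot be told apart in those comparisons. With 4 arrays per group, precision is set by the number of arrays.

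All 32 tested genes were well above background on all 20 arrays, which the choice of tested probes favours, since a probe had to be well above background on every array of some group. On several arrays most endothelial genes deviated from their group mean in the same direction, while on others they did not. On the arrays of SHR replicates 1, 2 and 4 and of untreated WKY replicate 2, 15, 15, 14 and 19 of 32 genes lay above the group mean. On the array of untreated WKY replicate 4, 31 of 32 genes lay above their group mean and 28 were the highest of the 4 untreated WKY arrays, where 49.4% of all 16804 genes tested lay above their group mean. On the arrays of untreated WKY replicates 1 and 3, 4 of 32 genes each lay above the group mean, which replicate 4 itself raises. Mean endothelial levels of the 4 untreated WKY arrays were -0.58, -0.28, -0.51 and 0.30, so that replicate 4 was the highest of all 20 arrays and the other 3 were among the 6 lowest.

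Lower endothelial arrays also occurred in the hypertensive groups. On the arrays of 2K1C replicate 4 and SHRSP replicate 4, 5 and 7 of 32 genes lay above the group mean, with mean levels of -0.36 and -0.29. On 1K1C replicate 2 the count was 7 of 32 and the mean -0.31. The shares of all genes tested above their group mean were 46.1% on 2K1C replicate 4, 38.1% on SHRSP replicate 4 and 55.9% on 1K1C replicate 2. The SHR arrays were closest to each other, with mean levels of 0.01, 0.04, 0.18 and -0.03. The median standard deviation between arrays of a group was 0.26 in SHR, 0.30 in SHRSP, 0.42 in 2K1C, 0.31 in 1K1C and 0.48 in untreated WKY for the endothelial genes, against 0.29, 0.20, 0.31, 0.28 and 0.29 over all genes.

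**Figure D1:**
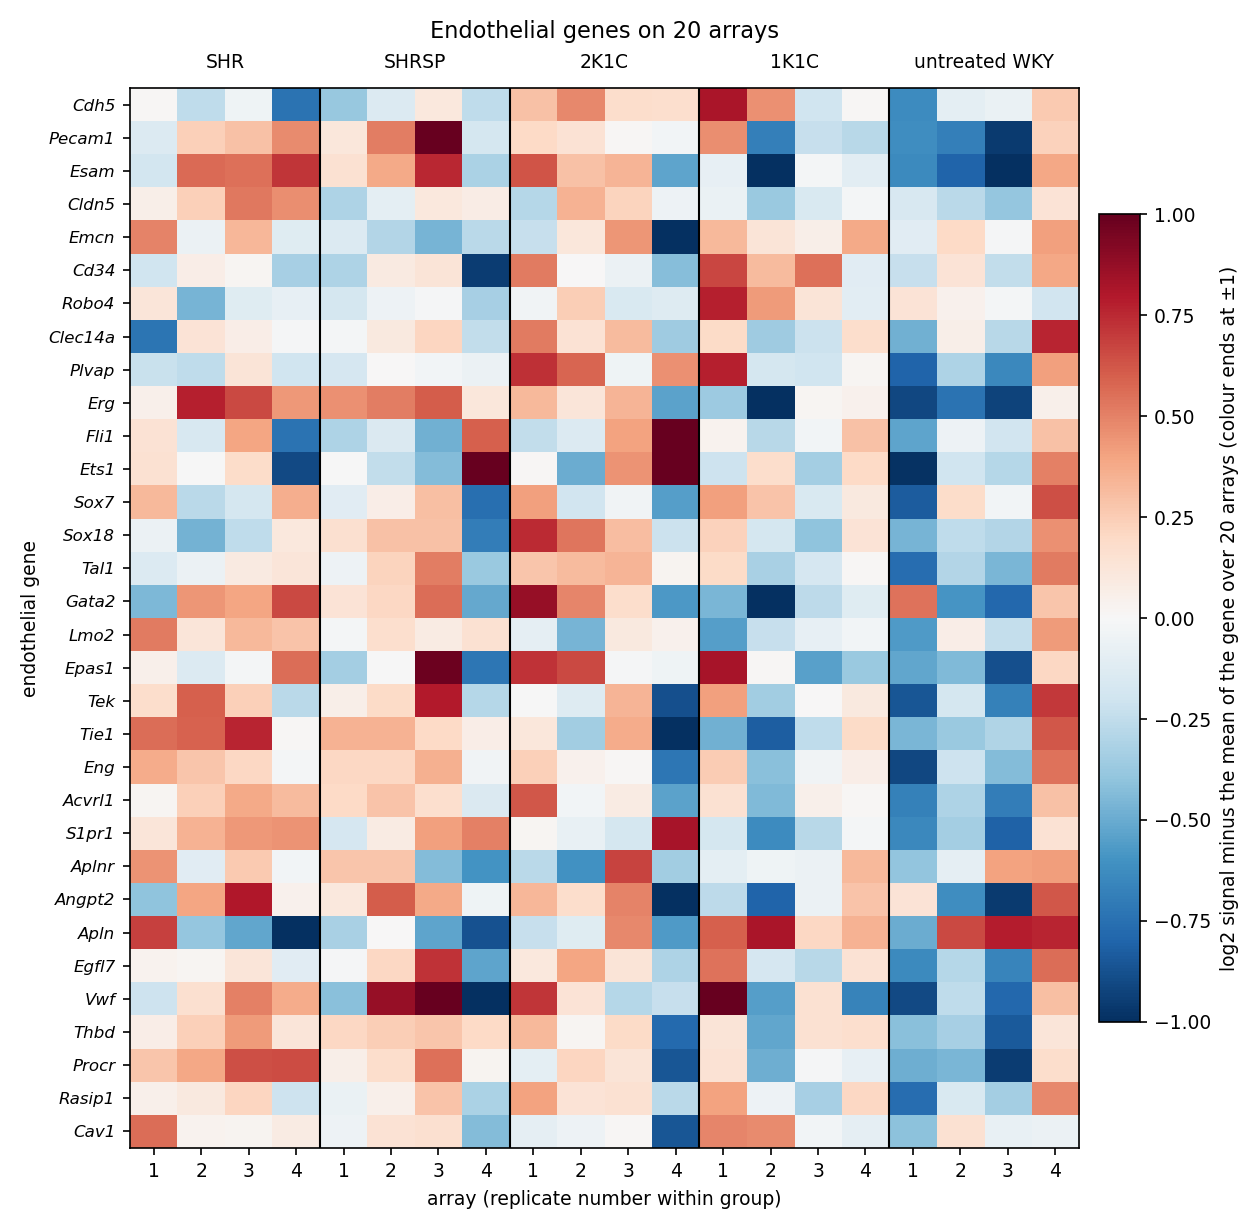
Colour shows the log2 signal of each of 32 endothelial genes (rows, by role) on each of 20 arrays (columns, 4 per group) minus the mean of that gene over the 20 arrays. The column of untreated WKY replicate 4 is red for most genes, while untreated WKY replicates 1 and 3 and 2K1C replicate 4 are mostly blue.

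Signals of other cell types differed between the same arrays, and their part in the endothelial differences was not tested. The mean level of 3 lymphocyte genes reached 2.98 on 2K1C replicate 4 and 1.28 on SHRSP replicate 4, against -5.75 to -1.46 on the other 18 arrays. The mean of 5 neuronal genes was 3.90 on untreated WKY replicate 1, 0.34 and 0.92 on replicates 2 and 3, and -1.79 on replicate 4, against -3.01 to -2.31 in SHR. The mean of 9 smooth muscle genes was lowest on 1K1C replicate 2, at 1.05, with 2.89 to 5.01 on the other 19 arrays. The mean of 4 brown adipocyte genes was 3.09 on untreated WKY replicate 1, against -3.60 to 0.85 on the other 19 arrays. That of 6 exocrine pancreas genes ranged from -5.52 to 1.52 in SHRSP and from -6.53 to 0.95 in untreated WKY. A further 26 endothelial genes outside the list of 36 followed the same arrays, with means of -1.07, -0.87, -1.01 and -0.22 on the 4 untreated WKY arrays.

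**Figure D2:**
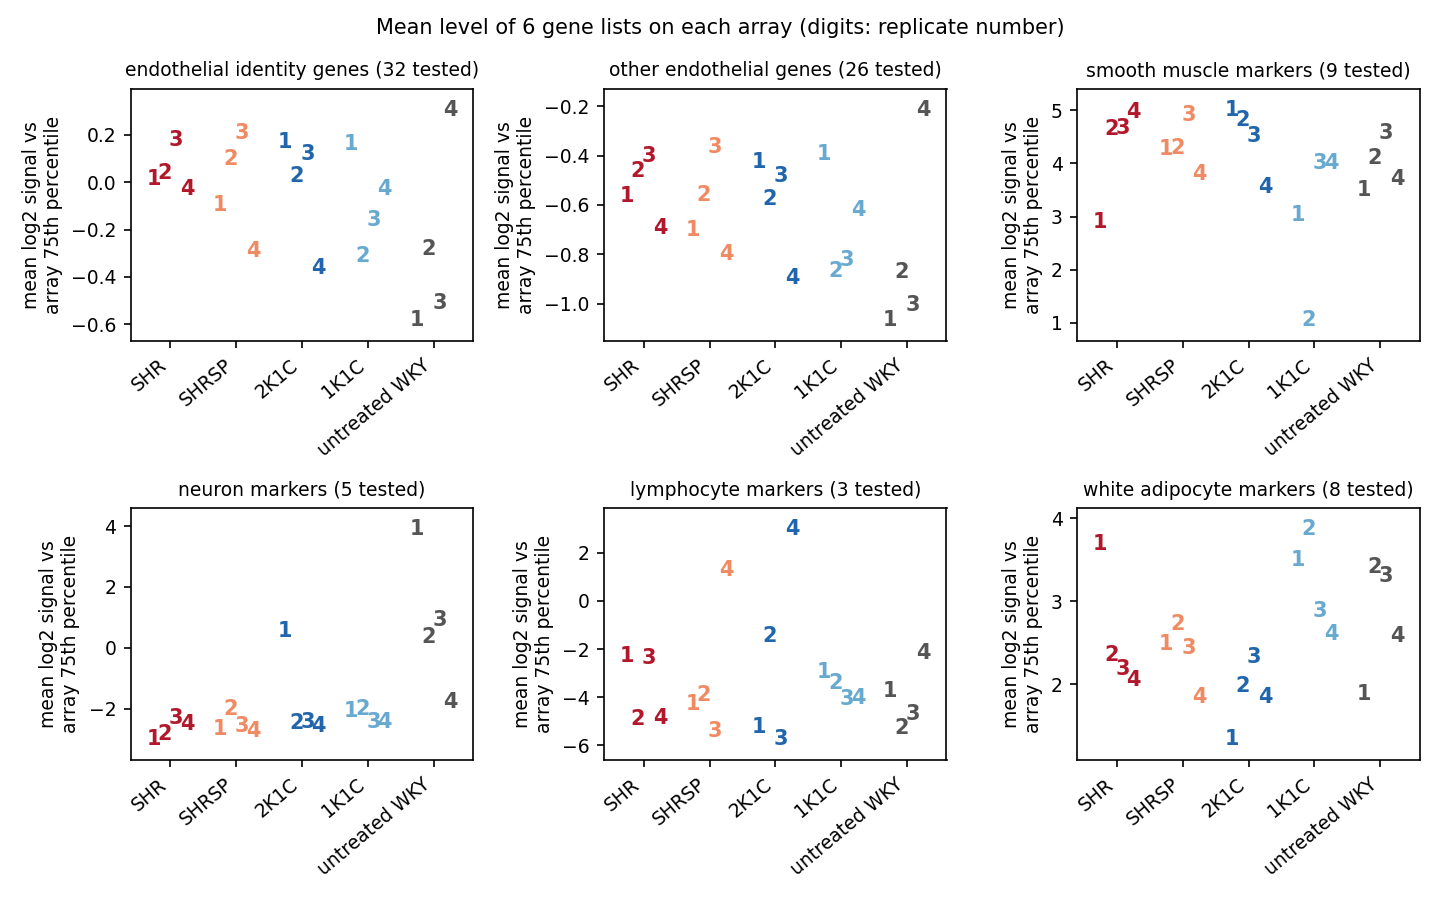
Each digit is the replicate number of an array, placed at the mean log2 signal (relative to the array's 75th percentile) of the genes of a list, by group. Untreated WKY replicate 4 is the highest array for both endothelial lists, and lymphocyte genes are highest on 2K1C replicate 4 and SHRSP replicate 4.

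The transcription factors held the gene with the widest range of group means. This was Erg, an ETS factor that keeps endothelial cells in their differentiated state. Erg was at 1.78, 2.51, 2.39 and 2.16 in SHR, 2.18, 2.24, 2.34 and 1.84 in SHRSP, 2.05, 1.85, 2.07 and 1.19 in 2K1C, 1.36, 0.69, 1.75 and 1.77 in 1K1C, and 0.82, 0.99, 0.81 and 1.78 in untreated WKY. The 4 SHR and the 4 SHRSP arrays all lay above the highest untreated WKY array, by a narrow margin for SHR replicate 1, and the untreated WKY array that came close was replicate 4. The probe read for Erg covers chr11:35655616-35655675 of the rn4 assembly that the array design uses. A second Erg probe was at -0.61, -0.15, -0.09 and -0.61 in SHR, -0.31, -0.32, -0.77 and -0.67 in SHRSP, -0.56, -0.88, -0.35 and -1.86 in 2K1C, -1.39, -1.90, -0.73 and -0.64 in 1K1C, and -1.72, -1.68, -1.71 and -0.73 in untreated WKY. It placed the arrays in much the same way, except that SHRSP replicate 3 lay slightly below untreated WKY replicate 4.

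Epas1, the hypoxia-inducible factor HIF-2alpha, was next in range among the factors. Epas1 was at 0.27, 0.09, 0.21 and 0.79 in SHR, -0.11, 0.22, 1.20 and -0.50 in SHRSP, 0.95, 0.89, 0.21 and 0.18 in 2K1C, 1.05, 0.23, -0.32 and -0.14 in 1K1C, and -0.29, -0.22, -0.65 and 0.43 in untreated WKY. All 5 groups overlapped. Gata2, a zinc-finger factor of endothelial and blood cells, averaged -2.79 in SHR, -2.96 in SHRSP, -2.81 in 2K1C, -3.51 in 1K1C and -3.19 in untreated WKY. Its blood partners Tal1 and Lmo2 had group means of -3.09 to -2.59 and -1.47 to -0.94. Tal1 was lowest in untreated WKY and Lmo2 in 1K1C, but a second Tal1 probe was not lowest in untreated WKY, with means of -3.32 in SHR, -3.25 in SHRSP and -3.07 in untreated WKY.

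Fli1 and Ets1 belong to the same family as Erg but are also abundant in lymphocytes. Fli1 was at -2.79, -3.09, -2.53 and -3.67 in SHR, -3.24, -3.07, -3.41 and -2.33 in SHRSP, -3.17, -3.07, -2.53 and -1.80 in 2K1C, -2.89, -3.21, -2.96 and -2.64 in 1K1C, and -3.46, -2.98, -3.12 and -2.63 in untreated WKY. Ets1 was at -3.39, -3.55, -3.35 and -4.44 in SHR, -3.55, -3.79, -3.97 and -2.30 in SHRSP, -3.53, -4.04, -3.09 and -2.35 in 2K1C, -3.75, -3.36, -3.88 and -3.34 in 1K1C, and -4.53, -3.74, -3.83 and -3.04 in untreated WKY. Their highest arrays were 2K1C replicate 4 and SHRSP replicate 4, the 2 arrays with the highest lymphocyte genes, and there they ran against the other endothelial genes. Sox7 and Sox18, related factors of vessel formation, had group means of -2.79 to -2.50 and 0.69 to 1.21, with Sox18 highest in 2K1C.

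Junction and surface proteins included the most widely used endothelial markers. Pecam1 (CD31) sits at the contacts between endothelial cells. Pecam1 was at 3.1, 3.48, 3.53 and 3.71 in SHR, 3.35, 3.75, 4.33 and 3.06 in SHRSP, 3.44, 3.39, 3.25 and 3.21 in 2K1C, 3.70, 2.56, 3.01 and 2.96 in 1K1C, and 2.62, 2.56, 2.28 and 3.47 in untreated WKY. All SHR, SHRSP and 2K1C arrays lay above 3 of the 4 untreated WKY arrays. Untreated WKY replicate 4 lay among the SHR and SHRSP arrays and above the 2K1C arrays. Esam is an adhesion molecule of endothelial tight junctions. Esam was at 0.83, 1.58, 1.56 and 1.72 in SHR, 1.16, 1.39, 1.77 and 0.69 in SHRSP, 1.64, 1.30, 1.35 and 0.48 in 2K1C, 0.93, -0.01, 0.99 and 0.91 in 1K1C, and 0.37, 0.21, -0.06 and 1.40 in untreated WKY. Here too the SHR, SHRSP and 2K1C arrays lay above 3 of the 4 untreated WKY arrays, with untreated WKY replicate 4 among them.

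Cdh5, the adherens-junction cadherin, averaged -2.30 in SHR, -2.21 in SHRSP, -1.77 in both 2K1C and 1K1C, and -2.18 in untreated WKY, so it was not higher in the inherited models. Plvap, which forms the diaphragms of fenestrae and caveolae, averaged 4.06 in SHR, 4.14 in SHRSP, 4.63 in 2K1C, 4.30 in 1K1C and 3.86 in untreated WKY. Claudin-5 (Cldn5) was at 1.29, 0.91, 1.02, 0.81 and 0.80 in the same order of groups. The sialomucins Emcn and Cd34, the guidance receptor Robo4 and the lectin Clec14a had ranges of group means of 0.52, 0.62, 0.45 and 0.29. None of these 4 was lowest in untreated WKY.

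Among the receptors, Tie1, the orphan partner of Tie2, had its highest means in the inherited models. Tie1 was at -1.80, -1.78, -1.60 and -2.35 in SHR, -2.02, -2.02, -2.16 and -2.30 in SHRSP, -2.25, -2.71, -1.99 and -3.50 in 2K1C, -2.84, -3.18, -2.61 and -2.18 in 1K1C, and -2.82, -2.73, -2.66 and -1.74 in untreated WKY. Untreated WKY replicate 4 was again the exception, lying near the top of all 20 arrays. S1pr1, the sphingosine-1-phosphate receptor that stabilises endothelial barriers and that lymphocytes also carry, was highest on 2K1C replicate 4. S1pr1 was at 1.47, 1.70, 1.78 and 1.80 in SHR, 1.18, 1.43, 1.76 and 1.85 in SHRSP, 1.37, 1.28, 1.17 and 2.17 in 2K1C, 1.18, 0.72, 1.08 and 1.33 in 1K1C, and 0.70, 1.01, 0.54 and 1.49 in untreated WKY. The SHR arrays lay above 3 of the 4 untreated WKY arrays.

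The activin-like receptor Acvrl1 and its co-receptor endoglin (Eng), which bind BMP9 in endothelium, were likewise highest in SHR and lowest in untreated WKY. Acvrl1 averaged 1.54 in SHR, 1.43 in SHRSP, 1.34 in 2K1C, 1.25 in 1K1C and 0.96 in untreated WKY. Eng averaged -0.35, -0.38, -0.67, -0.59 and -0.81 in that order. Tek, the angiopoietin receptor, averaged -2.39 in both SHR and SHRSP, -2.74 in 2K1C, -2.53 in 1K1C and -2.83 in untreated WKY, and the apelin receptor Aplnr had group means of -3.14 (2K1C) to -2.86 (SHR).

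Among secreted proteins, apelin (Apln), a peptide of endothelial tip cells that relaxes arteries, had its lowest means in the inherited models. Apln was at 0.86, -0.21, -0.34 and -1.13 in SHR, -0.14, 0.18, -0.34 and -0.69 in SHRSP, -0.05, 0.06, 0.66 and -0.39 in 2K1C, 0.78, 0.99, 0.38 and 0.53 in 1K1C, and -0.32, 0.84, 0.96 and 0.94 in untreated WKY. All 4 SHRSP arrays lay below 3 of the 4 untreated WKY arrays, and here the exception was untreated WKY replicate 1, not 4. Angpt2, the angiopoietin stored in endothelial granules, overlapped in all groups. Angpt2 was at -1.22, -0.42, -0.01 and -0.78 in SHR, -0.71, -0.22, -0.44 and -0.86 in SHRSP, -0.48, -0.64, -0.32 and -2.03 in 2K1C, -1.08, -1.62, -0.88 and -0.54 in 1K1C, and -0.68, -1.44, -1.78 and -0.20 in untreated WKY. Egfl7, an endothelial matrix protein, averaged 2.39 to 2.47 in the 4 hypertensive groups and 2.12 in untreated WKY.

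The genes of haemostasis were all lowest in untreated WKY. Procr presents protein C to thrombomodulin for activation. Procr was at -0.84, -0.73, -0.47 and -0.47 in SHR, -1.06, -0.94, -0.56 and -1.09 in SHRSP, -1.21, -0.90, -0.99 and -1.97 in 2K1C, -0.97, -1.61, -1.13 and -1.20 in 1K1C, and -1.60, -1.58, -2.06 and -0.94 in untreated WKY. The 4 SHR arrays lay above every untreated WKY array. Von Willebrand factor (Vwf), the platelet-tethering protein, had the widest spread of the 32 genes, with a pooled within-group standard deviation of 0.70. Vwf was at 2.40, 2.77, 3.11 and 2.98 in SHR, 2.18, 3.47, 3.67 and 1.43 in SHRSP, 3.31, 2.74, 2.32 and 2.37 in 2K1C, 3.80, 2.05, 2.76 and 1.93 in 1K1C, and 1.70, 2.35, 1.82 and 2.90 in untreated WKY. Thbd averaged 3.08 in SHR, 3.1 in SHRSP, 2.81 in 2K1C, 2.85 in 1K1C and 2.50 in untreated WKY.

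Cav1, the caveolar coat protein that smooth muscle and adipocytes also express, had its highest mean in 1K1C. Cav1 was at 6.07, 5.56, 5.55 and 5.60 in SHR, 5.47, 5.66, 5.67 and 5.08 in SHRSP, 5.42, 5.47, 5.53 and 4.66 in 2K1C, 6.00, 5.99, 5.49 and 5.42 in 1K1C, and 5.11, 5.67, 5.44 and 5.46 in untreated WKY. Rasip1, a RAS-interacting protein needed for vessel lumens, overlapped in all 5 groups. Rasip1 was at 1.03, 1.08, 1.20 and 0.78 in SHR, 0.91, 1.03, 1.27 and 0.66 in SHRSP, 1.39, 1.12, 1.14 and 0.71 in 2K1C, 1.39, 0.93, 0.65 and 1.19 in 1K1C, and 0.22, 0.83, 0.65 and 1.47 in untreated WKY. Over all 32 genes, untreated WKY was the lowest of the 5 groups for 18 and the highest for 0, while SHR was the highest for 12. Of all genes tested, 26.5% had their lowest and 14.7% their highest mean in untreated WKY, and 15.4% had their highest mean in SHR.

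**Figure D3:**
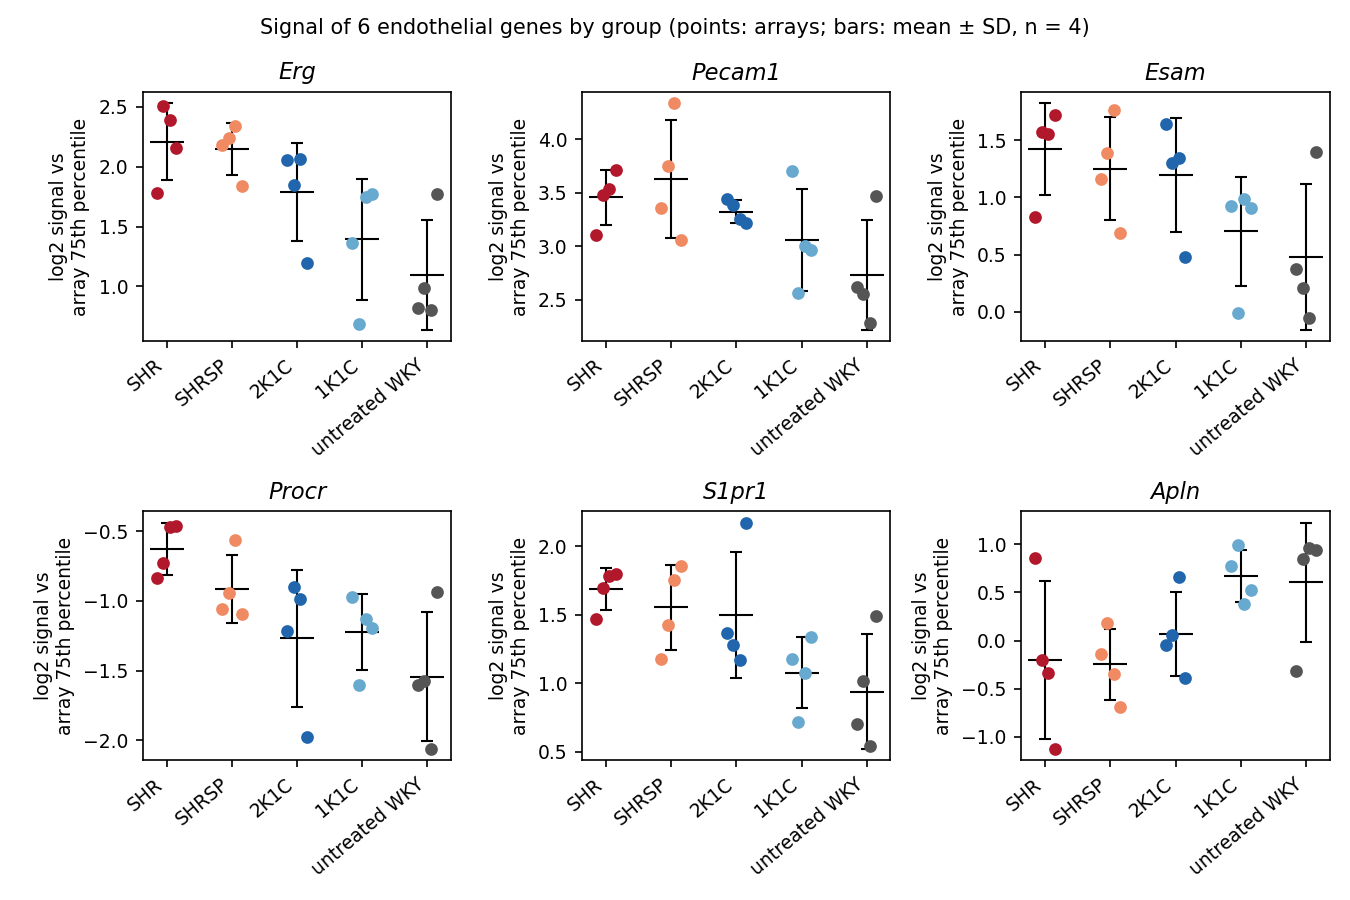
Points are single arrays and bars the mean ± SD (n = 4) of the log2 signal relative to the array's 75th percentile, for 6 endothelial genes in 5 groups. Erg has 8 SHR and SHRSP points between 1.78 and 2.51, all above 3 untreated WKY points at 0.81 to 0.99, and Apln runs the other way.

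In SHR, Erg rose relative to untreated WKY, and most other endothelial genes sat somewhat above untreated WKY without passing the test. Erg was 2.16-fold higher in SHR, a log2 difference of 1.11 for Erg (SE 0.27, adjusted p = 0.0438) in limma's moderated test over 20 arrays. The call was lost under 7 of 9 other processing settings (quantile normalization, normexp background, unscaled values, no filter, the mean of probes, the 2 groups alone and the replicate block), with adjusted p-values for Erg of 0.0226 to 0.155 over the 9. It was the 1 endothelial gene called of 32, against 1.80% of all genes called in either direction (302 of 16804). The median difference of the 32 genes was 0.33, with 26 above 0, against a median of 0.02 and 52.4% above 0 over all genes.

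The next-largest differences above untreated WKY were 0.94 for Esam (SE 0.33, adjusted p = 0.186), 0.92 for Procr (SE 0.24, adjusted p = 0.061), 0.75 for S1pr1 (SE 0.23, adjusted p = 0.118) and 0.72 for Pecam1 (SE 0.28, adjusted p = 0.239). The largest below it were -0.81 for Apln (SE 0.36, adjusted p = 0.319), -0.15 for Clec14a (SE 0.26, adjusted p = 0.833), -0.13 for Robo4 (SE 0.17, adjusted p = 0.777) and -0.13 for Cdh5 (SE 0.22, adjusted p = 0.837). At an unadjusted p under 0.05, 9 endothelial genes were higher and 1 lower, against 7.28% and 6.78% of all genes. Only Erg and Procr had SHR and untreated WKY arrays that did not overlap, both higher in SHR, where 3.31% of all genes were higher and 2.88% lower without overlap.

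All 6 receptors, all 3 haemostasis genes and both intracellular genes (Rasip1 and Cav1) had differences above 0, as had 8 of 9 transcription factors, 5 of 9 junction and surface genes and 2 of 3 secreted proteins. Their group medians were 0.52, 0.62, 0.25, 0.25, 0.04 and 0.27 in that order. Single untreated WKY arrays moved these values. Without untreated WKY replicate 4, 5 genes were called (Acvrl1, Erg, Esam, Procr and S1pr1), 4.12% of all genes were called and the median difference was 0.54, whereas the median was 0.20 without untreated WKY replicate 1 and 0.18 without replicate 3. Without untreated WKY replicate 1, 2 or 3, or SHR replicate 2, 3 or 4, none of the 32 genes was called in this comparison, with Erg's adjusted p between 0.0065 and 0.152 over the 8 single omissions.

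In SHRSP the picture was close to that of SHR, with which it shares the untreated WKY arrays. Erg was 2.08-fold higher, a log2 difference of 1.05 for Erg (SE 0.27, adjusted p = 0.0467), the 1 gene called of 32, against 2.44% of all genes (410 of 16804). This call was lost under 6 of the 9 settings (quantile normalization, unscaled values, no filter, the mean of probes, the 2 groups alone and the replicate block), with adjusted p-values for Erg of 0.0395 to 0.0902 over the 9. The next-largest differences were 0.89 for Pecam1 (SE 0.28, adjusted p = 0.113), 0.77 for Esam (SE 0.33, adjusted p = 0.255), 0.63 for Procr (SE 0.24, adjusted p = 0.197) and 0.62 for S1pr1 (SE 0.23, adjusted p = 0.192). Those furthest below untreated WKY were -0.86 for Apln (SE 0.36, adjusted p = 0.241), -0.41 for Emcn (SE 0.25, adjusted p = 0.43), -0.27 for Cd34 (SE 0.25, adjusted p = 0.615) and -0.20 for Aplnr (SE 0.27, adjusted p = 0.749). The median of the 32 genes was 0.30, with 24 above 0, against 0.004 and 50.5% over all genes.

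At an unadjusted p under 0.05, 6 genes were higher and 1 lower in SHRSP, against 9.21% and 7.38% of all genes. The SHRSP and untreated WKY arrays did not overlap for Erg and Thbd, both higher, and Emcn, lower, where 6.29% of all genes were higher and 4.95% lower without overlap. Without untreated WKY replicate 4, Erg, Pecam1 and Procr were called, 5.61% of all genes were called and the median was 0.55, whereas the median was 0.15 without untreated WKY replicate 1, 0.19 without untreated WKY replicate 3 and 0.17 without SHRSP replicate 3. Without SHRSP replicate 4, the array rich in lymphocyte transcripts, the median was 0.41 and none was called, and none was called without any other SHRSP array or without untreated WKY replicate 1, 2 or 3.

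Letters upstream of 4 of the genes with large differences in the inherited models are shown because ETS factors, Erg among them, bind a GGAA core. RefSeq promoters (GRCr8) were matched for 19 of the 36 genes, and the 250 bases before the start are printed 5′ to 3′ for 4 of them: Erg, the 1 gene called, and Procr, S1pr1 (differences above 0) and Apln (below 0), which were not called. Esam and Pecam1, also among the larger differences, had no entry among the 19. Capitals mark GGAA or TTCC, its reverse complement.
Erg (chr11:48251567-48251816, minus strand): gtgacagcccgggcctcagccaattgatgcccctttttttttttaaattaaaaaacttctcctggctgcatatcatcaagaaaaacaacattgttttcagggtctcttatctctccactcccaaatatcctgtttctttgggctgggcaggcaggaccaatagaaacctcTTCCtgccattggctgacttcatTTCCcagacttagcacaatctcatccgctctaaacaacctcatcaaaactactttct
Procr (chr3:164714477-164714726, plus strand): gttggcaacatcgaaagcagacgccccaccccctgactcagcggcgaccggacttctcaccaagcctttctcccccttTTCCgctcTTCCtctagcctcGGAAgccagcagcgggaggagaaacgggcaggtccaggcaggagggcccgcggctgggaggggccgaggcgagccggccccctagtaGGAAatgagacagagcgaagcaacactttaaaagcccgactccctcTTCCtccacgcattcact
S1pr1 (chr2:206314071-206314320, minus strand): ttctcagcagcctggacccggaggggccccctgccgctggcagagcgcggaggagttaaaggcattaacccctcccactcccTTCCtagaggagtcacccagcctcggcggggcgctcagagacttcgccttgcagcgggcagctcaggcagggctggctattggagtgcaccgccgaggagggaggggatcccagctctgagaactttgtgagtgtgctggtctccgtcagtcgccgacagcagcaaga
Apln (chrX:132091247-132091496, minus strand): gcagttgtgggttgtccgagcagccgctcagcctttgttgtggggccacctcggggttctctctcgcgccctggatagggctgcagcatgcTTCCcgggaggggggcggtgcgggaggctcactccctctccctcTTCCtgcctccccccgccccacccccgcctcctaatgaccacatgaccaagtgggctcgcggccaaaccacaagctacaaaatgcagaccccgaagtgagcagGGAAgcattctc
Over 300 bases around the start and both strands, GGAA was found in 19 of 19 promoters and in 95.8% of 33469 rat promoters, so the core alone is found almost everywhere. The longer ETS form CCGGAA, which contains GGAA, was found in 0 of 19 and in 14.95% of all promoters. The SOX-type motif AACAAT was found in Emcn and Erg, 2 of 19, and in 11.7% of all promoters. The GATA-type motif AGATAA was found in Erg alone, 1 of 19, and in 11.6% of all promoters. Where a listed gene had more than 1 promoter entry, the entry with the lowest start coordinate was used. The 33469 rat promoters were not reduced to 1 per gene. A match describes the letters and not a bound site.

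In 2K1C, the renovascular model with both kidneys, Plvap and Epas1 led the differences from untreated WKY and none of the 32 genes passed limma's adjusted test. Of all genes, 0.0119% were called (2 of 16804), and at an unadjusted p under 0.05, 6 endothelial genes were higher and 0 lower, against 10.8% and 11.2% of all genes. No endothelial gene had 2K1C and untreated WKY arrays without overlap, where 3.73% of all genes were higher and 4.06% lower without overlap. The largest differences were 0.77 for Plvap (SE 0.25, adjusted p = 0.124), 0.74 for Epas1 (SE 0.35, adjusted p = 0.226), 0.71 for Esam (SE 0.33, adjusted p = 0.222) and 0.69 for Erg (SE 0.27, adjusted p = 0.164). Those furthest below untreated WKY were -0.54 for Apln (SE 0.36, adjusted p = 0.374), -0.33 for Emcn (SE 0.25, adjusted p = 0.431), -0.22 for Aplnr (SE 0.27, adjusted p = 0.639) and -0.15 for Cav1 (SE 0.21, adjusted p = 0.684).

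The median difference in 2K1C was 0.30, with 24 of 32 above 0, against 0.04 and 53.6% over all genes. Transcription factors had the highest median of the larger role groups, at 0.48 over 9 genes. Without untreated WKY replicate 4, Plvap and Tal1 were called, 5.33% of all genes were called and the median was 0.50, though the second Tal1 probe differed by 0.13 (SE 0.20) over all arrays. Without 2K1C replicate 4, none was called, 28 of 32 were above 0 and the median was 0.39. The median was 0.16 without untreated WKY replicate 3 and 0.19 without 2K1C replicate 1. Without 2K1C replicate 3, 432 of 16804 genes were called, none of the 32 among them, and the median was 0.25.

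In 1K1C, compared with untreated WKY on the same slide, the differences were smallest. None of the 32 genes and 0% of all genes were called by limma, and 0 of the 32 were higher or lower at an unadjusted p under 0.05, against 4.93% higher and 4.34% lower of all genes. No endothelial gene was without overlap, against 2.33% of all genes higher and 1.64% lower. The largest differences were 0.44 for Plvap (SE 0.25, adjusted p = 0.612), 0.44 for Vwf (SE 0.47, adjusted p = 0.749), 0.40 for Cdh5 (SE 0.22, adjusted p = 0.612) and 0.39 for Epas1 (SE 0.35, adjusted p = 0.71). The lowest were -0.32 for Gata2 (SE 0.35, adjusted p = 0.755), -0.22 for Tie1 (SE 0.30, adjusted p = 0.811), -0.15 for Lmo2 (SE 0.18, adjusted p = 0.792) and -0.07 for Clec14a (SE 0.26, adjusted p = 0.944).

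The median in 1K1C was 0.22, with 26 of 32 above 0, against 0.10 and 65.2% over all genes. Fitted on these 2 groups alone, within the slide, 0 of the 32 were called. Without untreated WKY replicate 4, 1.40% of all genes were called, none of the 32 among them, and the median was 0.44. Without untreated WKY replicate 1 the median was 0.077, against 0.079 over all genes, and without 1K1C replicate 1 it was 0.11. All 9 smooth muscle genes were lower in 1K1C than in untreated WKY, with a median difference of -1.09 and none called, and 8 of 8 white adipocyte genes were higher, with a median difference of 0.48 and none called. Their part in the endothelial values was not tested.

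**Figure D4:**
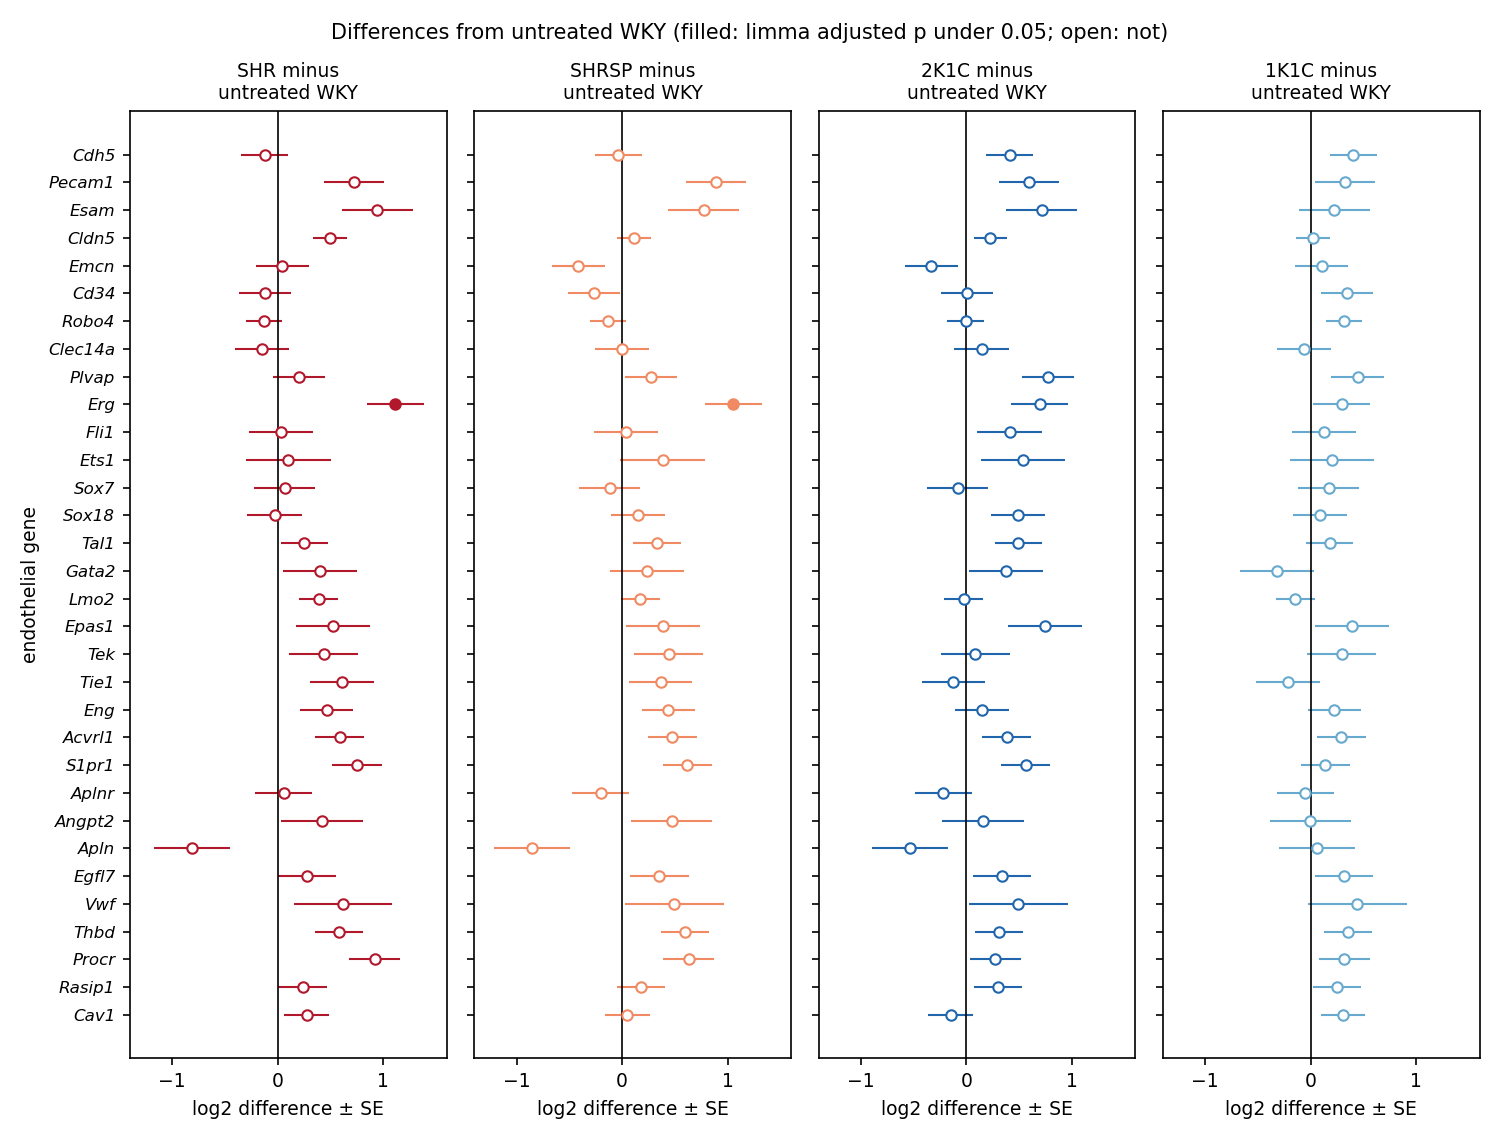
Log2 differences ± SE from untreated WKY are shown for 32 endothelial genes in SHR, SHRSP, 2K1C and 1K1C. Filled circles, Erg in SHR at 1.11 and in SHRSP at 1.05, passed limma's adjusted p of 0.05, and Apln lies furthest to the left in SHR, SHRSP and 2K1C.

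Between SHRSP and SHR, which lay on the same slide, no endothelial gene passed the test. None of the 32 was called, against 0.351% of all genes (59 of 16804), and 1 was lower and 0 higher at an unadjusted p under 0.05, against 1.59% lower and 2.04% higher of all genes. That gene was Cldn5, at 0.66, 0.87, 1.07 and 1.04 in SHRSP, against 1.02, 1.20, 1.5 and 1.43 in SHR. The differences furthest below 0 were -0.45 for Emcn (SE 0.25), -0.38 for Cldn5 (SE 0.16), -0.29 for Procr (SE 0.24) and -0.26 for Aplnr (SE 0.27), and the highest were 0.28 for Ets1 (SE 0.40), 0.18 for Sox18 (SE 0.26), 0.17 for Pecam1 (SE 0.28) and 0.14 for Clec14a (SE 0.26). All adjusted p-values were 1.00. Emcn did not overlap, at 0.21, 0.05, -0.12 and 0.08 in SHRSP, against 0.84, 0.29, 0.68 and 0.22 in SHR, where 1.86% of all genes were lower without overlap. The median was -0.06, with 12 of 32 above 0, against -0.01 and 47.8% over all genes.

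The 2 renovascular models did not differ in any endothelial gene that passed the test. For 1K1C against 2K1C none of the 32 and 0% of all genes were called by limma, and 1 endothelial gene was higher and 0 lower at an unadjusted p under 0.05, against 15.5% and 5.77% of all genes. None of the 32 had arrays without overlap, against 7.27% of all genes higher and 2.40% lower. The 0% called depended on single arrays. Without 1K1C replicate 4, 1864 of 16804 genes were called, and without 2K1C replicate 3, 297 were. None of the 32 was among them in either case. The gene at an unadjusted p under 0.05 was Cav1, 0.46 for Cav1 (SE 0.21, adjusted p = 0.224). Apart from it, the highest differences were 0.60 for Apln (SE 0.36, adjusted p = 0.347), 0.44 for Emcn (SE 0.25, adjusted p = 0.327) and 0.34 for Cd34 (SE 0.25, adjusted p = 0.44), and the lowest were -0.70 for Gata2 (SE 0.35, adjusted p = 0.261), -0.49 for Esam (SE 0.33, adjusted p = 0.417), -0.42 for S1pr1 (SE 0.23, adjusted p = 0.306) and -0.40 for Sox18 (SE 0.26, adjusted p = 0.385). Of the 9 transcription factors, 8 were below 0 in 1K1C, with a median of -0.33, and 11 of all 32 genes were above 0, against 51.6% of all genes. Fibroblast, white adipocyte, macrophage and smooth muscle genes had median differences of 0.63, 1.31, 0.65 and -1.43 in 1K1C against 2K1C, with none called.

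Set against the renovascular models together, the inherited models had higher Tie1, Erg and Procr and lower Apln and Cdh5, though none passed the adjusted test. Of all genes 3.15% were called (530 of 16804), and at an unadjusted p under 0.05, 4 endothelial genes were higher and 5 lower, against 7.16% and 10.5% of all genes. The highest differences were 0.66 for Tie1 (SE 0.21, adjusted p = 0.11), 0.59 for Erg (SE 0.19, adjusted p = 0.11), 0.48 for Procr (SE 0.17, adjusted p = 0.151) and 0.39 for Esam (SE 0.24, adjusted p = 0.4). The lowest were -0.60 for Apln (SE 0.25, adjusted p = 0.235), -0.49 for Cdh5 (SE 0.16, adjusted p = 0.112), -0.37 for Plvap (SE 0.17, adjusted p = 0.282) and -0.37 for Cd34 (SE 0.17, adjusted p = 0.282). The median was 0.07, with 17 of 32 above 0, against -0.04 and 43.0% over all genes. All 6 receptors were above 0, with a median of 0.26, and 3 of 9 junction and surface genes, with a median of -0.11.

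A second list of endothelial genes, outside the 36, also had medians above 0 against untreated WKY, in 1K1C close to the median of all genes. Of 26 further endothelial genes tested of 30 listed, 0 were called by limma in any of the 7 comparisons. Their medians against untreated WKY were 0.30 in SHR, 0.22 in SHRSP, 0.20 in 2K1C and 0.12 in 1K1C. Over all genes the medians were 0.02, 0.004, 0.04 and 0.10 in the same order. The largest differences were 0.98 for Cdh13 in SHR (SE 0.39, adjusted p = 0.247), 1.12 for Nostrin in SHRSP (SE 0.40, adjusted p = 0.168), 0.99 for Cdh13 in 2K1C (SE 0.39, adjusted p = 0.167) and -0.97 for Pcdh17 in 1K1C (SE 0.61, adjusted p = 0.647). Nos3, the endothelial nitric oxide synthase, was at -0.39, 0.07, 0.10 and 0.39 in SHR, against -1.12, -1.13, -1.35 and -0.12 in untreated WKY, a difference of 0.97 (SE 0.33, adjusted p = 0.162). The array of untreated WKY replicate 4 again lay among the SHR arrays. At an unadjusted p under 0.05, 4 of the 26 were higher and 0 lower in SHR, 2 and 1 in SHRSP, 3 and 2 in 2K1C, and 0 and 0 in 1K1C. Of all genes, 7.28% were higher and 6.78% lower in SHR, and 9.21% and 7.38% in SHRSP. The shares were 10.8% and 11.2% in 2K1C, and 4.93% and 4.34% in 1K1C.

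Genes of arterial endothelium, 11 of 11 tested, had 0 called in the 7 comparisons, and Gja4 (connexin 37) differed most, by 1.28 in SHR (SE 0.46, adjusted p = 0.193) and by 1.42 in 2K1C (SE 0.46, adjusted p = 0.125). Of 9 venous and capillary genes tested, 1 was called in SHR, against 1.80% of all genes. This was Selp (P-selectin, a leukocyte adhesion molecule of endothelial granules), with a higher mean in SHR. It was at -0.51, 0.22, 0.03 and -0.12 in SHR, against -1.56, -2.11, -2.80 and -0.41 in untreated WKY, a difference of 1.63 (SE 0.36, adjusted p = 0.0303). These arrays overlapped, since untreated WKY replicate 4 lay above SHR replicate 1. The 9 venous and capillary genes went both ways in SHR, with 5 higher and 4 lower than in untreated WKY and a median difference of 0.004. Car4, a carbonic anhydrase of capillaries, fell in the inherited models relative to the renovascular ones by 0.89 on the log2 scale (SE 0.15, adjusted p = 0.0017). It was the 1 called of 9 in that comparison, against 3.15% of all genes. Of the 9, 4 were higher and 5 lower, with a median difference of -0.12. None of 6 lymphatic endothelial genes was called, and Flt4 differed most in 2K1C, by 1.03 (SE 0.44, adjusted p = 0.191).

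Of the cell types outside the endothelium, none of 9 smooth muscle, 8 white adipocyte, 4 erythroid, 6 macrophage, 3 lymphocyte, 3 mesothelial and 6 exocrine pancreas genes tested was called by limma in any of the 7 comparisons. The fibroblast gene Dpt rose by 1.62 in SHR (SE 0.24) and by 1.28 in SHRSP (SE 0.24), the 1 called of 7, with adjusted p-values of 8.3e-04 and 0.0063, and by 1.36 in the inherited against the renovascular models (SE 0.17). The 7 fibroblast genes were split, with 5 higher and 2 lower in SHR (median 0.26) and 4 higher and 3 lower in SHRSP (median 0.30). In the inherited against the renovascular models 4 were higher and 3 lower (median 0.06). The neuronal genes Prph and Gap43 fell by 3.50 and 2.97 in SHR (SE 0.85 and 0.70) and by 3.51 and 3.02 in SHRSP, and Elavl4 was called lower too, 3 of 5 tested. All 5 neuronal genes had differences below 0 in 2K1C and 1K1C as well, with medians of -2.17 and -2.36 and none called, so untreated WKY had the highest mean of the 5 groups for this list. Ppargc1a, which brown adipocytes express, fell by 1.37 in SHR (SE 0.32), the 1 called of 4. By the same test 1.80% of all genes were called in SHR, 2.44% in SHRSP and 3.15% in the inherited against the renovascular models.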

How the data were processed

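RNA from the mesenteric arteries of 20 rats, 4 in each group, was measured on 1-colour Agilent arrays, 1 rat per array. The authors deposited the scanner output of each array. The submitters' processing notes name Agilent Feature Extraction, version 10.7.3.1. The deposited gProcessedSignal column is an intensity on a linear scale that is background-subtracted per the file headers. Their deposited value table holds the same intensity, equal to it within a relative difference of 0, with no further scaling. Spots numbered 62976 per array, 4259 of them controls, which were left out together with 301 to 684 outlier spots per array. No spot was saturated.

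From these values log2 of gProcessedSignal minus the 75th percentile of each array's non-control spots was computed, spots of a probe were averaged, and a probe was kept where some group had it well above background on each of its arrays (19381 of 30367 probes). The probe with the highest mean stood for a gene, giving 16804 genes. limma 3.58.1 (R 4.3.3) fitted lmFit and eBayes to all 20 arrays, with two-sided contrasts and Benjamini-Hochberg adjustment over all genes tested in a comparison at 0.05. A gene counted as called passed that threshold. The fit was tested on simulated data.

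The 36 genes and all gene lists were chosen with earlier results of these data known. Differences were printed for every called gene and the 4 largest uncalled in each direction per comparison, values per array for the 2 genes with the widest range of group means in each role group, and values for Fli1, Ets1, Cldn5, Emcn and Nos3 on single arrays were chosen after their values were seen. Of the other endothelial lists, called genes or genes with large differences were named, and of lists for other cell types only called genes. Lists covered smooth muscle, fibroblast, white and brown adipocyte, erythroid, macrophage, lymphocyte, mesothelial, neuronal, exocrine pancreas, and arterial, venous and capillary, lymphatic and other endothelial genes. Alternatives were quantile normalization, array-median scaling, normexp background, unscaled deposited values, no filter, the mean of probes, names by accession, the 2 groups alone, a replicate block, single arrays left out and, added after seeing the data, second probes on their own. Gene names are those of the array design. Protein sequences were not used here.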

Additional observations from a re-analysis of the deposited data

Results flagged for a closer look

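A single array stood far from the other 3 of its group, by Dixon's ratio, in 10 of 160 groups checked (32 genes in 5 groups), where 1 in 20 would give 8.

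Esam was at -0.01 on 1K1C replicate 2, with the other 3 arrays between 0.91 and 0.99, and Thbd was at 2.35 on the same array, with the others between 3.00 and 3.04. On that array 7 of 32 endothelial genes lay above their group mean and the smooth muscle mean was the lowest of all arrays. Sox18 was at 0.17 on SHRSP replicate 4, with the others between 1.02 and 1.16, and Cav1 was at 4.66 on 2K1C replicate 4, with the others between 5.42 and 5.53. Both arrays carried the highest lymphocyte levels.

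Tie1 was at -1.74 on untreated WKY replicate 4, with the others between -2.82 and -2.66, on the array where 31 of 32 endothelial genes lay above their group mean. Apln was at -0.32 on untreated WKY replicate 1, with the others between 0.84 and 0.96. Clec14a was at 0.38 on SHR replicate 1, with the others between 1.11 and 1.25, and Cav1 was at 6.07 on the same array, with the others between 5.55 and 5.60. Plvap was at 4.33 on SHR replicate 3, with the others between 3.94 and 4.00, and Aplnr was at -2.68 on 1K1C replicate 4, with the others between -3.10 and -3.05.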

How the results depend on the processing

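The number of endothelial genes called in SHR against untreated WKY was 1, and it was 0 under quantile normalization, normexp background, unscaled deposited values, no filter, the mean of probes and the 2 groups alone, 2 under array-median scaling (Erg and Procr), and 0 to 5 with single arrays left out. In SHRSP against untreated WKY it was 0 instead of 1 under quantile normalization, no filter, the mean of probes, the 2 groups alone and the replicate block, 1 under unscaled deposited values but Pecam1 in place of Erg, and 0 to 3 with single arrays left out. It was 0 to 2 with single arrays left out in 2K1C against untreated WKY, and 2 under unscaled deposited values in the inherited against the renovascular models (Erg and Procr). Leaving out arrays shrinks a group to 3, and the causes of the other changes were not tested. Erg's difference itself kept its sign and lay between 1.01 and 1.34 in SHR and between 0.96 and 1.28 in SHRSP with single arrays left out. Its second probe gave 1.10 (adjusted p = 0.0997) and 0.94 (adjusted p = 0.15).

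Clec14a in 1K1C against untreated WKY, at -0.07, was 0.018 under array-median scaling and 0.031 with its second probe. With single arrays left out, small differences changed sign: against untreated WKY the ranges were -0.31 to 0.10 for Clec14a and -0.29 to 0.035 for Cdh5 in SHR, -0.25 to 0.052 for Cav1 in 2K1C, and -0.39 to 0.033 for Tie1, -0.31 to 0.023 for Lmo2 and -0.23 to 0.18 for Clec14a in 1K1C. In SHRSP against SHR they were -0.086 to 0.47 for Ets1, -0.067 to 0.36 for Pecam1 and -0.055 to 0.23 for Clec14a. Array-median scaling moved the median of all genes in SHR to 0.12 and in 1K1C to 0.18, and unscaled deposited values moved it to 0.17 in SHRSP, -0.19 in 2K1C and 0.23 in the inherited against the renovascular models.

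Replicate numbers were not taken to pair the rats. Same-numbered arrays correlated in their deviations from the group means between -0.36 and -0.06 for SHR and untreated WKY, between 0.03 and 0.22 for SHRSP and untreated WKY, where all 4 were above 0, between -0.02 and 0.25 for 2K1C and untreated WKY, and between -0.19 and 0.55 for 1K1C and untreated WKY. With the replicate block 1 gene was called in SHR, S1pr1 in place of Erg, and 0 in SHRSP.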
